A study of Mus musculus with 16 samples.

Results

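Yolk sac (YS) mesothelium, the thin epithelium on the inner, exocoelomic side of the mouse visceral yolk sac, was examined in chimeric embryos made from *Stat3* null embryonic stem cells (ESCs) and wild-type (WT) host blastocysts. Its cells were taken by the cell type name that the study had transferred to every cell from an atlas of mouse gastrulation and early organogenesis, at all stages, after leaving out cells that failed the RNA filter, called doublets and WT-sorted cells with a tdTomato read. Of 37841 analysed cells of 87 types, 603 (1.59%) carried the name, 383 of them WT and 220 null. Almost all came from embryonic day (E) 8.5 (254 cells, 116 WT and 138 null) and E9.5 (345 cells, 264 WT and 81 null). At E7.5 there were 3 WT cells and 1 null cell, and E7.5 was not compared further.

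The null cells descended from *Stat3* null ESCs on the CD1 background that carry a tdTomato reporter, and the host blastocysts were WT CD1, so each chimera held cells of both genotypes and any change in the null cells was measured inside embryos with WT neighbours. Chimeras of the 3 stages were dissociated enzymatically, sorted by flow cytometry into tdTomato-positive (null) and tdTomato-negative (WT) cells, and profiled with droplet single-cell RNA sequencing of 3' ends. There were 2 libraries of each genotype at E7.5, 2 at E8.5 and 4 at E9.5, called A to D here within each group. Per the labels each pool gave 1 WT and 1 null library, but the library names of the cells could not be tied to pools, so these letters pair nothing across groups and the tests were unpaired. The E7.5 and E8.5 libraries were made from pooled embryos, and the study's methods describe fewer E9.5 embryos than library pairs, so some of those libraries may share an embryo. The p-values measure the spread between libraries, part of which may be technical, and may then be too small. Whether the yolk sac was always part of the dissected chimera is not given in the sources used here, and the share of YS mesothelium may depend on it. A difference between null and WT cells can come from the ESCs used as well as from the missing gene, and the design cannot tell these apart. ESCs injected at the blastocyst stage give rise to the mesoderm of the yolk sac but hardly to its endoderm.

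The mesothelium arises from extra-embryonic mesoderm, which also forms the blood islands and the vessels of the yolk sac. It faces the exocoelomic cavity, rests on a collagen-rich layer over the blood vessels, and is known by the transcription factor HAND1 and by uroplakin 3B (UPK3B), a membrane protein of mesothelial cells. STAT3 is the transcription factor that JAK kinases phosphorylate after cytokines such as LIF, IL6 and IL11 bring together their receptors with the shared subunit gp130 (*Il6st*). SOCS3, whose gene is a direct STAT3 target, feeds back on that receptor complex.

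Libraries with over 15 YS mesothelium cells entered the tests on genes. These were the 4 at E8.5, WT A, B and D at E9.5, and null A, C and D at E9.5. Their summed counts of unique molecular identifiers (UMIs) over the YS mesothelium ranged from 499152 to 3687528, and levels are given as 3' tags scaled to that sum, in CPM. E9.5 WT C (14 cells) and null B (11 cells) stayed out of the tests. In the null libraries 11 of the cells lacked a tdTomato UMI, all at E8.5, 7 in null A and 4 in null B. No cell barcode was shared between YS mesothelium cells of different libraries, although 19 of them carried a barcode also found in another library. The summed level of 8 blood genes was 0 to 14.2 CPM, with 7 of the 8 under 5 CPM in every tested library. That of 8 yolk sac endoderm genes was 10.5 to 21.2 CPM with 7 under 5 CPM, and that of 8 endothelial genes was 121 to 164 CPM with *Cdh5*, *Tie1*, *Emcn* and *Esam* under 5 CPM. The 6 cardiomyocyte genes summed to 93.4 to 246 CPM, with *Nkx2-5*, *Actn2* and *Myh6* under 5 CPM. After thinning each cell to 10000 UMIs, the embryonic globin *Hba-x* was seen in 98.6% to 100% of E8.5 WT cells per library and 82.4% to 98.3% of E8.5 null cells, and in 33.9% to 94.0% of E9.5 WT cells and 6.25% to 22.2% of E9.5 null cells. In Mesenchyme the E9.5 shares were 47.1% to 96.7% and 0% to 20.4%. Haemoglobin genes were not tested.

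The levels of the markers *Hand1* and *Upk3b* describe the cells and do not check their name, which was itself made from expression. *Hand1* (chromosome 11, 57828705 to 57832818, minus strand, GRCm38) was at 469 and 572 CPM in the E8.5 WT libraries and at 518 and 747 CPM in the null ones. At E9.5 it was at 513, 440 and 420 CPM in WT and at 456, 488 and 470 CPM in null libraries. In WT cells its mean level was the highest of the 36 cell types compared at E8.5 and of the 40 compared at E9.5, at 457 CPM against 368 CPM in the next type at E9.5, Amniotic ectoderm. *Hand1* had a UMI in 95.8% to 100% of the thinned cells of each tested library, and in 0% to 3.05% of thinned Erythroid cells, which should lack it, at median depths of 17529 to 49046 UMIs in YS mesothelium and 20780 to 42665 in Erythroid cells. In thinned WT Mesenchyme cells *Hand1* was seen in 88.1% to 92.2% at E8.5 and in 60.5% to 79.3% at E9.5. *Upk3b* (chromosome 5, 136038496 to 136046487, plus strand) separated the libraries by stage. It was at 53.5 and 11.6 CPM in E8.5 WT and 85.5 and 14 CPM in E8.5 null libraries, then at 445, 320 and 235 CPM in E9.5 WT and 261, 121 and 166 CPM in E9.5 null libraries. The smallest E9.5 value was above the largest E8.5 value, and at each stage the genotypes overlapped. *Upk3b* had a UMI in 5.88% to 47.1% of thinned cells per library at E8.5, in 82.6% to 96.0% in E9.5 WT and in 56.2% to 81.5% in E9.5 null, against 0% to 2.63% of Erythroid cells. The keratin genes *Krt8*, *Krt18* and *Krt19* were detected in every tested library, at 851 to 1458, 560 to 1400 and 110 to 271 CPM, while mesothelin (*Msln*), a marker of the later body-cavity mesothelium, had no UMI in any tested library. The 13 genes of the mesothelium list summed to 2683 CPM in E9.5 WT YS mesothelium and to 4852 CPM in Amniotic ectoderm, the highest other type. Of 8 markers of embryo proper mesothelium and septum transversum, *Tbx18*, *Aldh1a2* and *Lhx9* stayed under 5 CPM in every tested library. Others of the list were present, such as *Hlx* at 24.7, 29.4 and 24.1 CPM and *Mab21l2* at 101, 103 and 103 CPM in E9.5 WT, and the list summed to 132 to 268 CPM per library.

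Levels of a gene in YS mesothelium are set beside those of the other types as a description only, because the cell type names were themselves made from expression. At E9.5 in WT cells, 827 of the 5906 genes with at least 20 CPM in YS mesothelium were higher there than in any of the other types, 120 of them by more than 2-fold. The gene furthest above the next type was *Alox12b*, a lipoxygenase, at 22.3 CPM against 0.229 CPM in Posterior somitic tissues. It was followed by the tight-junction gene *Cldn2*, at 36.5 against 1.03 CPM, and by the secreted angiopoietin-like gene *Angptl6*, at 482 against 17.9 CPM in Embryo proper mesothelium. The collectin *Colec11* was at 159 CPM against 19.9 CPM in Epicardium, *Lox*, which cross-links collagen, at 39.1 against 2.91 CPM, and the growth factor *Gas6* at 184 against 26.6 CPM. *Ptgs2*, the inducible cyclooxygenase, was at 36.1 against 4.30 CPM. Of 28 genes of a collagen and matrix list at 20 CPM or more, 15 were highest in YS mesothelium, among them *Col1a1* (3935 against 830 CPM in Mesenchyme), *Col1a2* (2691 against 522 CPM) and *Col3a1* (2845 against 740 CPM). *Lum*, which encodes the collagen-binding proteoglycan lumican, was at 1545 against 502 CPM in Mesenchyme, and *Fn1*, the fibronectin gene, at 1014 against 484 CPM in Allantois. Of 12 genes of extra-embryonic mesoderm at 20 CPM or more, 5 were highest in YS mesothelium (*Hand1*, *Tbx20*, *Postn*, *Fn1* and *Pmp22*). Of 21 genes of an imprinted list at 20 CPM or more, 7 were highest there. *H19* was at 3387 CPM against 1806 CPM in Amniotic ectoderm, and *Igf2* at 1512 against 939 CPM.

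**Figure D1:**
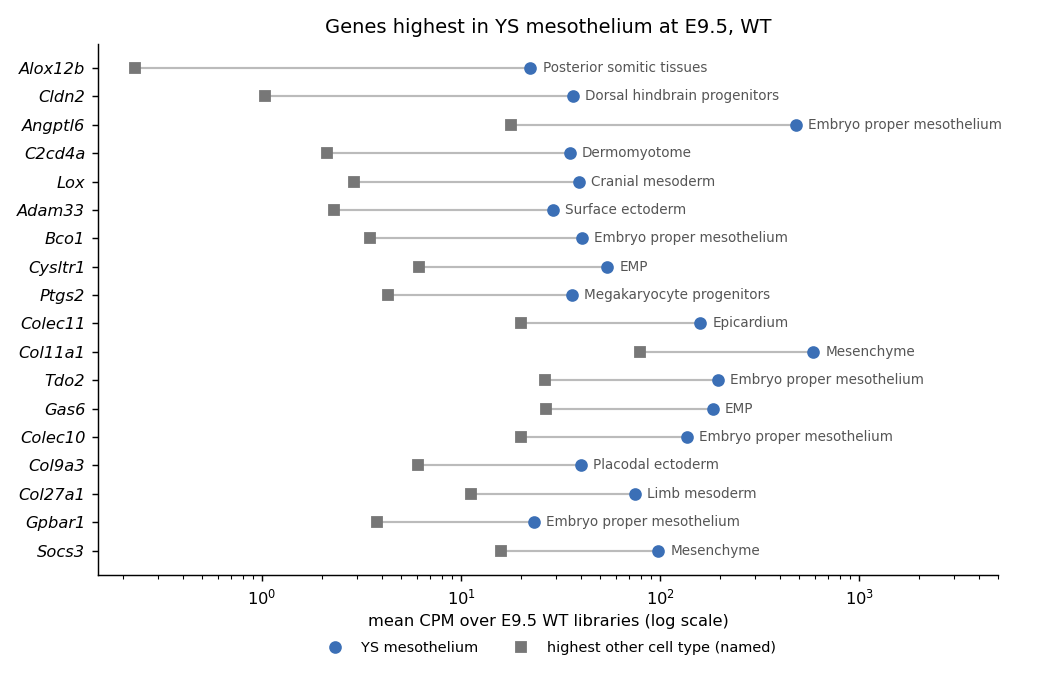
Mean level in E9.5 WT libraries (CPM, log scale) of the 18 genes with the largest ratio between YS mesothelium (circles) and the highest other cell type (squares, named beside each gene), among genes with at least 20 CPM. *Angptl6* sits at 482 against 17.9 CPM and *Socs3* at 97.6 against 15.9 CPM.

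Of 16 gp130 ligands, receptors and JAK kinases, 3 were at 20 CPM or more in E9.5 WT cells, and 2 of these, *Il6st* and *Lifr*, were highest in YS mesothelium. *Il6st* was at 74.9 and 73.4 CPM in E8.5 WT libraries and at 48.6, 51.6 and 54.2 CPM at E9.5, where the next type, Cranial mesoderm, had 37.7 CPM. *Lifr*, which binds LIF, was at 57.3 and 50.2 CPM at E8.5 and at 40.6, 53.6 and 60.2 CPM at E9.5, with 34.5 CPM in Venous endothelium as the next type. Both were the highest of all types compared at both stages, and neither differed by genotype at E9.5 beyond the spread between libraries (log2 fold change 0.02, SE 0.17, for *Il6st* and -0.22, SE 0.21, for *Lifr*; adjusted p = 0.993 and 0.898, edgeR quasi-likelihood test). *Il11ra1*, the IL11 receptor, was at 11.6, 11.1 and 11.4 CPM in E9.5 WT. *Lif* had 1 UMI in all tested libraries together, *Il11* 1 UMI in each genotype at E9.5 and *Il6* and *Osm* none, and of the kinases *Jak1* was at 68.6 to 71.8 CPM in E9.5 WT and at 81.2 to 89.5 CPM in null libraries (log2 0.29, SE 0.14, adjusted p = 0.670).

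YS mesothelium was found in every library at E8.5 and E9.5. At E8.5 it made up 2.79% and 1.18% of the cells of WT A and B and 3.16% and 1.48% of null A and B, so the libraries of 1 genotype differed more than the genotypes did. At E9.5 it made up 1.62%, 2.12%, 0.735% and 3.64% of WT A to D (2.03% ± 1.22, SD, n = 4) and 0.624%, 0.456%, 1.00% and 1.75% of null A to D (0.958% ± 0.574, n = 4). The groups overlapped, and the difference of -1.07 percentage points had p = 0.171 in a two-sided exact permutation test (70 arrangements, smallest possible p 0.0286). With edgeR over all types the log2 fold change of null against WT was 0.24 (SE 0.61, adjusted p = 0.989) at E8.5 and -1.15 (SE 0.49, unadjusted p = 0.0269, adjusted p = 0.955) at E9.5. YS mesothelium was not called at either stage. Of the types tested, 0 of 68 (0%) were called at E8.5 and 1 of 71 (1.41%), Erythroid, at E9.5. The difference between the stages, -1.43 (SE 0.87), had an adjusted p of 1.00, and 1 of 77 types (1.30%) was called for it. With each library left out in turn that difference ran from -2.16 to -0.62. The E8.5 change ran from -0.41 to 1.05 and the E9.5 change from -1.60 to -0.83. Counts of cells do not show whether fewer cells formed or fewer survived dissociation and sorting. Set against Embryo proper mesothelium alone, YS cells made up 51.9% ± 16.4 of both mesothelia in E9.5 WT libraries and 36.2% ± 12.4 in null libraries (SD, n = 4 each, difference -15.8 percentage points, p = 0.171, two-sided exact permutation test). At E7.5 the libraries without a YS mesothelium cell allowed shares of up to 0.168% (WT B, 0 of 1783 cells) and 0.833% (null B, 0 of 360 cells), taken as 3 cells of the total, while the upper ends of the exact 95% binomial intervals were 0.207% and 1.02%.

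**Figure D2:**
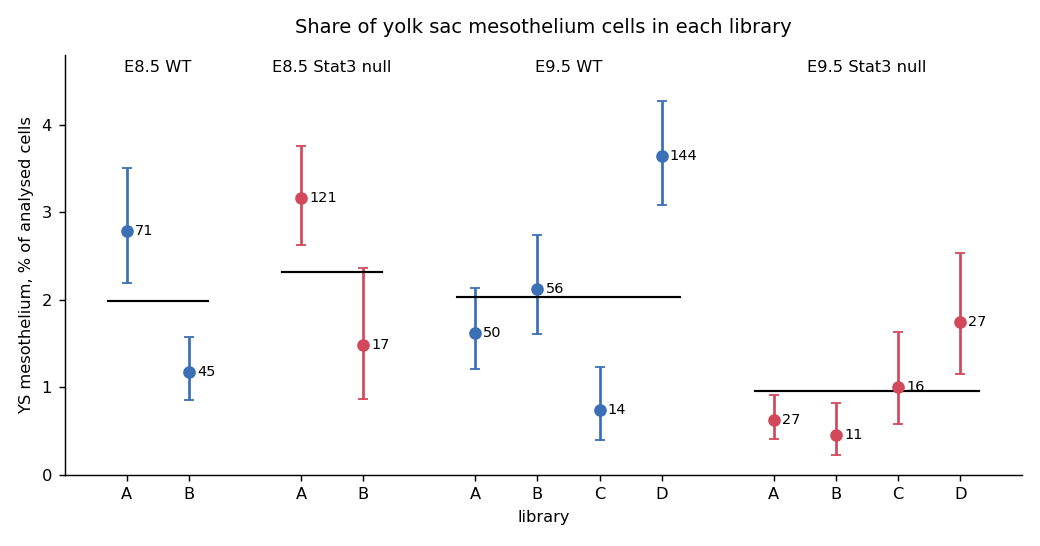
Share of YS mesothelium (% of analysed cells, y axis) in each E8.5 and E9.5 library (x axis), WT in blue and *Stat3* null in red. Whiskers are exact 95% binomial intervals, which cover counting error only, black lines are group means and the small figures beside the points are numbers of cells. The 4 E9.5 null libraries lie between 0.456% and 1.75% and the 4 WT libraries between 0.735% and 3.64%.

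The atlas stage to which the cells mapped differed among libraries of 1 stage. Each cell carries the stage of its nearest atlas cells, and the mean over YS mesothelium cells was 8.90 and 8.79 days in E8.5 WT A and B, 8.88 and 8.65 days in null A and B, 9.14, 9.12 and 9.04 days in E9.5 WT A, B and D, and 9.04, 9.0 and 9.01 days in null A, C and D. Null minus WT was -0.0787 days at E8.5 and -0.0868 days at E9.5, and over both stages -0.0828 days (p = 0.233, two-sided exact permutation test, 120 arrangements). Leaving out E8.5 null A took the difference to -0.142 days and p to 0.0167, the smallest possible with that many libraries, and leaving out null B took it to -0.0240 days. The B libraries of E8.5 had the lowest mapped stage and the lowest *Upk3b* and *Col1a1* of their groups, in both genotypes.

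Between E8.5 and E9.5 the WT YS mesothelium changed 209 of 8917 genes tested (2.34%; a gene counts as called with an adjusted p under 0.05 and a log2 fold change over 1 in size), 137 of them higher (1.54%) and 72 lower (0.807%) at E9.5. In the null cells 176 genes were called (1.97%), 132 higher (1.48%) and 44 lower (0.493%). These counts depended on single libraries. With each library left out in turn the WT count ran from 74 (without E8.5 WT B) to 248, with 130 without E8.5 WT A and 128 without E9.5 WT A, and the null count from 86 (without E8.5 null B) to 220, with 101 without E9.5 null A. At any fold 475 genes (5.33%) passed the adjusted p in WT and 402 (4.51%) in null cells. Stage and library are the same split here, since no embryo gave both. *Cpz*, a carboxypeptidase of the matrix, had no UMI in either E8.5 WT library and 21, 5.88 and 8.41 CPM at E9.5, at least 10.1-fold higher counting a floor of 3 UMIs over the group, and in null cells it was at least 12.2-fold higher. The glypican gene *Gpc4* had 0.948 and 0 CPM at E8.5 and 13.1, 12.4 and 13.3 CPM at E9.5, a ratio of 18.8 (exact 95% interval 5.05 to 158, counting error only). The metalloprotease-like gene *Adam23* went from 7.11 and 3.86 CPM to 47.9, 41.2 and 42.3 CPM (log2 2.72, SE 0.35, adjusted p = 1.92e-05). *Nr3c1*, the glucocorticoid receptor, went from 3.79 and 1.29 CPM to 34.8, 15.7 and 17.1 CPM (log2 2.68, SE 0.63, adjusted p = 0.0205). *Mertk*, a receptor for GAS6, and the metallothionein *Mt3* rose too, with ratios of 16.2 (2.73 to 657) and 17.9 (6.0 to 88.2).

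Among the genes that fell, *Plac8* had the largest change, from 109 and 203 CPM to 4.35, 9.80 and 8.41 CPM (log2 fold change -4.32, SE 0.53, adjusted p = 0.00612). *Nebl*, which encodes an actin-binding protein, fell from 23.7 and 47.7 CPM to 0.725, 2.61 and 1.90 CPM (log2 -4.19, SE 0.45, adjusted p = 1.54e-06). Both also fell in null cells, by 3.14 and 2.57 on the log2 scale. *Kdr* and *Tek*, receptors of the endothelial lineage, were at 30.8 and 16.7 CPM and at 37.9 and 50.2 CPM in E8.5 WT libraries. At E9.5 they were at 9.43, 7.19 and 6.51 CPM and at 18.1, 23.5 and 8.95 CPM, a fall by 1.88 and 1.56 on the log2 scale (adjusted p = 0.000617 and 0.00224), and in null cells they fell by 1.70 and 1.81. They were 2 of 3 tested endothelial markers, while 0.807% of all genes tested were called lower in WT cells and 0.493% in null cells. The other, *Egfl7*, was at 92.9 and 72.1 CPM and then at 106, 96.7 and 108 CPM in WT cells (log2 0.20, SE 0.16, adjusted p = 0.537). Of 3 tested cardiomyocyte genes, *Myl7* and *Tnnt2* fell in WT cells (by 2.21 and 1.98), and *Myl7* fell in null cells (by 1.98). The other, the troponin gene *Tnni1*, was at 108 and 124 CPM in E8.5 WT libraries, where its mean of 116 CPM was next to the 117 CPM of Mesenchyme, and at 74.0, 77.1 and 99.5 CPM at E9.5 (log2 -0.51, adjusted p = 0.0628). The signalling genes *Bmp2* and *Id2* fell in WT cells, *Bmp2* from 39.3 and 39.9 CPM to 7.98, 12.4 and 16.3 CPM (log2 -1.67, SE 0.29, adjusted p = 0.000964). They were the 2 called of 16 tested BMP genes. In null cells 1 of the 16 was called, *Bmp2*, also lower, a call kept in 8 of 16 alternatives.

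Mesothelial genes moved in different directions. *Krt7* rose from 2.37 and 1.29 CPM to 20.3, 13.1 and 14.9 CPM in WT cells (log2 2.80, SE 0.50, adjusted p = 0.00110) and by a log2 of 3.48 in null cells. *Bnc1*, a zinc finger gene of mesothelium, rose from 17.1 and 9.02 CPM to 48.6, 34.0 and 36.9 CPM (log2 1.34, adjusted p = 0.00979). *Lrrn4* fell by 2.44 in WT cells, a call kept in 7 of 16 alternatives. Of the 10 tested members of the mesothelium list, these 3 were called in WT cells. The mean of *Krt18* went from 1283 to 687 CPM and that of *Krt8* from 1375 to 911 CPM in WT cells, and neither was called. At any fold, 3 members of the list passed the adjusted p as lower in WT cells and 2 in null cells. In null cells 2 members were called higher and 1, *Krt18*, lower. Its log2 fold change there ran from -1.32 to -0.93 over 16 alternatives, and 15 kept the call. *Upk3b* itself, with a log2 fold change of 2.99 in WT (SE 0.73, adjusted p = 0.0792) and 1.39 in null cells (SE 0.70, adjusted p = 0.368), was not called. *Hand1* changed by -0.26 in WT (adjusted p = 0.275) and by -0.50 in null cells, where its adjusted p was 0.0333 and its fold change was under the limit.

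Of the 12 tested genes of extra-embryonic mesoderm none was called in either genotype, with medians of -0.11 and -0.18. *Fn1* was at 879 and 985 CPM in E8.5 WT libraries and at 1031, 1072 and 940 CPM at E9.5 (log2 0.04, SE 0.10, adjusted p = 0.875). The T-box gene *Tbx20* was at 97.6 and 99.2 CPM and then at 127, 112 and 99.8 CPM (log2 0.10, SE 0.16, adjusted p = 0.795). *Hand2*, the relative of *Hand1*, was at 103 and 109 CPM and then at 159, 141 and 149 CPM (log2 0.42, SE 0.14, adjusted p = 0.0719). Of 9 tested ligands that act on blood and vessels, 1 was called lower, *Vegfa*, and in WT cells that call was kept in 8 of 17 alternatives. Among all genes tested, 0.807% were called lower in WT cells and 0.493% in null cells. *Kitl*, the ligand of the KIT receptor of blood progenitors, was at 81.0 and 95.3 CPM and then at 36.3, 54.2 and 53.7 CPM in WT cells, with an adjusted p of 0.0469 and a change under the fold limit (log2 -0.91, SE 0.25). *Angpt1*, the activating ligand of TEK, was at 51.6 and 50.2 CPM and then at 39.9, 43.8 and 40.7 CPM (log2 -0.39, SE 0.28, adjusted p = 0.497). *Angpt2*, which can oppose it and is not on that list, fell from 9.0 and 19.3 CPM to 3.63, 2.61 and 1.08 CPM (log2 -2.66, SE 0.65, adjusted p = 0.0176). *Aplnr*, the apelin receptor of vessels, fell by 1.45 in WT and by 2.41 in null cells.

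Of the 29 tested genes of the matrix list the median log2 fold change in WT cells was 0.90, against 0.02 for all genes tested, and 26 of the 29 were above 0. Only 4 were called, all higher, and 1.54% of all genes tested were called higher. *Col6a3* rose from 23.7 and 25.8 CPM to 128, 84.3 and 59.7 CPM (log2 1.75, SE 0.40, adjusted p = 0.0368). *Tnc*, which encodes tenascin C, rose from 41.2 and 45.1 CPM to 138, 115 and 84.6 CPM (log2 1.28, adjusted p = 0.0205). *Col6a2* and the proteoglycan *Bgn* rose by 1.61 and 1.62, calls kept in 8 and 15 of 17 alternatives. In null cells the median was 0.95 against 0.01, and *Col6a1*, *Col6a2* and *Tnc* rose by 1.57, 1.65 and 1.82. None of the fibrillar collagen genes *Col1a1*, *Col1a2* and *Col3a1* was called in WT cells. *Col1a1* (chromosome 11, 94936224 to 94953042, plus strand) was at 1386 and 621 CPM in E8.5 WT and at 1060 and 280 CPM in E8.5 null libraries. It was at 5077, 3920 and 2808 CPM in E9.5 WT and at 4786, 3309 and 3295 CPM in E9.5 null libraries. The stages did not overlap in either genotype, as was so for 42.1% of all genes tested in WT and 34.9% in null cells. The log2 fold change was 1.87 (SE 0.64, adjusted p = 0.176) in WT and 2.35 (SE 0.66, adjusted p = 0.127) in null cells.

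**Figure D3:**
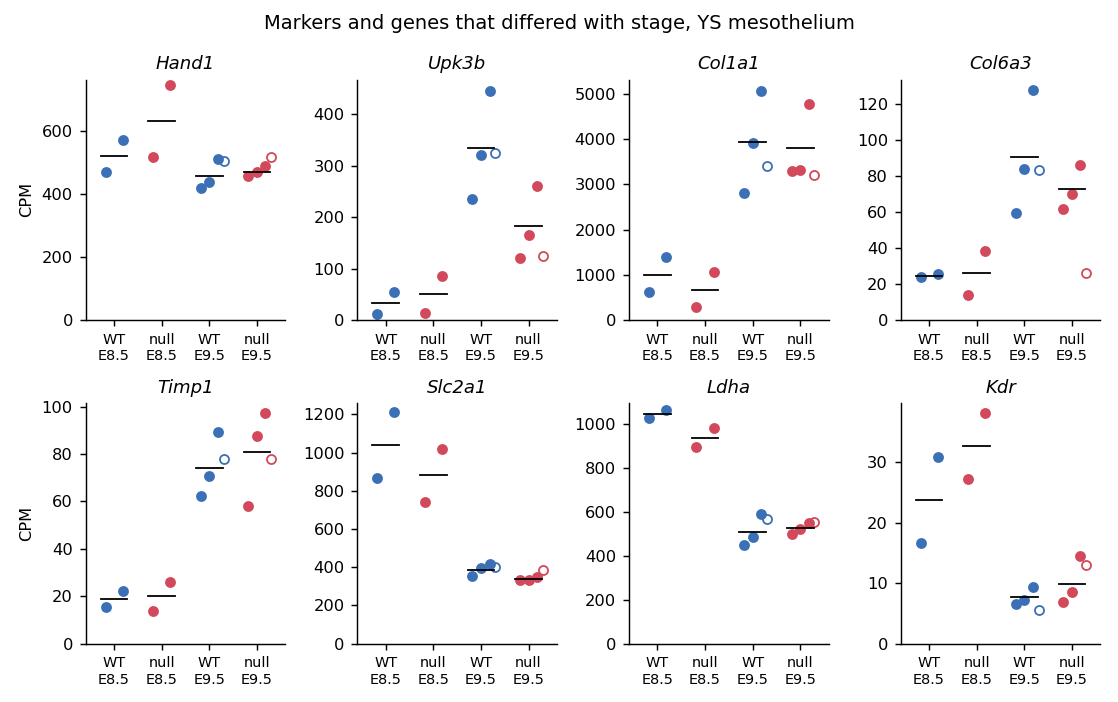
Level (CPM, y axis from 0) of 8 genes in the YS mesothelium of each library by genotype and stage. Filled points are libraries that entered the tests, open points the libraries left out for too few cells (E9.5 WT C and null B), and black lines the means of the filled points. *Slc2a1* lies at 743 to 1213 CPM in the 4 E8.5 libraries and at 332 to 416 CPM in the 6 tested E9.5 libraries.

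Of 22 tested genes of glycolysis and of the response to low oxygen, 4 were called lower in WT cells, as were 0.807% of all genes tested. In this list 19 were below 0, with a median log2 fold change of -0.61. *Slc2a1*, the main glucose transporter of embryonic cells, was at 868 and 1213 CPM in E8.5 WT libraries and at 394, 353 and 416 CPM at E9.5 (log2 -1.50, SE 0.14, adjusted p = 1.54e-06). In null libraries it was at 743 and 1020 CPM and then at 333, 349 and 332 CPM (log2 -1.47, SE 0.14, adjusted p = 2.92e-06). Every E9.5 library lay below every E8.5 library in both genotypes, as was so for 14.2% of all genes tested in WT and 11.8% in null cells. *Ldha*, which makes lactate from pyruvate, was at 1028 and 1062 CPM and then at 450, 485 and 590 CPM in WT cells (log2 -1.12, SE 0.11, adjusted p = 7.96e-07). Its null libraries were at 893 and 980 CPM and then at 523, 500 and 549 CPM. *Slc2a3* and the phosphofructokinase gene *Pfkp* fell by 1.77 and 1.48 in WT cells, and *Pfkp* and *Ankrd37* by 1.96 and 1.50 in null cells. *Pgk1*, *Eno1* and *Pgam1* passed the adjusted p in WT cells with changes of -0.79, -0.74 and -0.64, under the fold limit. Among the 3 above 0 was *P4ha1*, which hydroxylates collagen prolines, at 205 and 166 CPM and then at 355, 232 and 244 CPM in WT cells (log2 0.47, SE 0.27, adjusted p = 0.401). Its mean at E9.5 was the highest of all types, at 277 CPM against 138 CPM in Mesenchyme. *Ero1l*, an oxidase that helps proteins fold, was at 50.2 and 27.0 CPM and then at 60.9, 67.3 and 59.4 CPM (log2 0.48, SE 0.21, adjusted p = 0.197). *Vegfa*, the vascular growth factor that low oxygen induces, was at 61.1 and 108 CPM and then at 34.8, 51.6 and 37.7 CPM in WT cells (log2 -1.04, adjusted p = 0.0324, a call kept in 8 of 17 alternatives) and fell by 1.65 in null cells. At E9.5 *Ldha* was lower in YS mesothelium than in any of the 39 other types compared, at 509 CPM against 2709 CPM in the highest, Spinal cord progenitors, whereas only 2 types had more *Slc2a1*.

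The sequences before the start sites of *Ldha* and *Slc2a1* are shown because both fell in WT cells and carry the core letters ACGTG of the element that hypoxia-inducible factors bind, and that of *Socs3* because it carries the letters TTCNNNGAA that STAT proteins bind. Each is the 250 bases upstream of the RefSeq start on GRCm38.p6, written 5' to 3' on the strand of the gene, with matches on either strand in capitals. *Ldha* lies at chr7:46845554-46845803 (plus strand), *Slc2a1* at chr4:119108495-119108744 (plus strand) and *Socs3* at chr11:117969367-117969616 (minus strand).
Ldha: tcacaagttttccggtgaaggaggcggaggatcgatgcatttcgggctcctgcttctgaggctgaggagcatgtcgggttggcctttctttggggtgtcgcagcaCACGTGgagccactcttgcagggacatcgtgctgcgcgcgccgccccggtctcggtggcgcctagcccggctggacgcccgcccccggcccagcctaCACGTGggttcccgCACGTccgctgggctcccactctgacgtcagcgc
Slc2a1: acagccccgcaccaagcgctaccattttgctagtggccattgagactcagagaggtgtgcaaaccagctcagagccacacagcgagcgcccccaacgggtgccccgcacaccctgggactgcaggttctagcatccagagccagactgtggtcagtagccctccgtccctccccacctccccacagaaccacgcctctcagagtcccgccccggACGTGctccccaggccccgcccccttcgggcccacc
Socs3: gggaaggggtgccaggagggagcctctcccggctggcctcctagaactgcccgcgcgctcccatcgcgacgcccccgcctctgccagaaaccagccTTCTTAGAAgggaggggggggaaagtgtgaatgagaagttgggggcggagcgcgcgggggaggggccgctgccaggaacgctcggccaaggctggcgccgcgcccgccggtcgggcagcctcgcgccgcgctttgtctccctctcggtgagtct
The *Ldha* window held 5 matches to ACGTG counted on both strands, 2 of its runs of capitals being palindromes that match on each strand, between 145 and 34 bases upstream, and that of *Slc2a1* 1 match, 36 bases upstream. A second *Ldha* start in RefSeq had no match. ACGTG was found in 16.6% of all 32851 promoter windows of this length and in 13 of the 28 windows (46.4%) of the glycolysis and hypoxia genes. It was in 35 of the 213 windows (16.4%) of the genes called with stage in WT cells. The *Socs3* window held 1 match to TTCNNNGAA, 154 bases upstream of the RefSeq start. The GENCODE coordinates given below start *Socs3* further upstream, and by them this window lies inside the gene. TTCNNNGAA was in 7.02% of all windows and in 3 of the 29 windows (10.3%) of the listed STAT3 target genes, those of *Icam1*, *Irf1* and *Socs3*. It was in 9 of the 213 windows (4.23%) of the genes called with stage in WT cells. Of the genes called between null and WT cells at E9.5, 1 of 13 windows (7.69%) held it. A match describes letters and not binding.

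Of the 8 tested Hedgehog genes none was called in either genotype. The receptor and target gene *Ptch1* was at 307 and 458 CPM in E8.5 WT libraries and at 261, 243 and 286 CPM at E9.5 (log2 -0.59, SE 0.18, adjusted p = 0.0789), and *Hhip*, a target that binds the ligand, was highest of all types at both stages, with 71.4 CPM at E9.5 against 49.8 CPM in the next type. The ligand genes *Ihh* and *Shh* were at 0 to 0.474 CPM and at 0 to 7.11 CPM in the tested libraries. *Bmp4* was at 127 to 183 CPM in every tested library. Of 11 tested Wnt genes none was called in WT cells and 4 rose in null cells, where 1.48% of all genes tested were called higher. In the E8.5 and E9.5 null libraries *Sfrp1*, a secreted Wnt inhibitor, was at 13.3 and 12 CPM and then at 67.1, 50 and 42.5 CPM (log2 1.91, SE 0.27, adjusted p = 9.63e-05). *Wnt2*, a ligand, was at 3.24 and 4.01 CPM and then at 12.3, 18.4 and 18.9 CPM (log2 2.21, SE 0.51, adjusted p = 0.0112). *Sfrp2* and the Wnt target *Axin2* rose by 2.61 and 1.86. In WT cells *Sfrp1* was at 28.4 and 28.3 CPM and then at 34.1, 35.9 and 37.7 CPM (log2 0.26), and *Wnt2* at 19 and 11.6 CPM and then at 23.2, 7.84 and 13.8 CPM (log2 -0.26). At E8.5 the null minus WT difference was -1.13 for *Sfrp1* (adjusted p = 0.461) and -2.27 for *Wnt2* (adjusted p = 0.132), and the genotypes did not overlap, as was so for 32.4% of all genes tested there. The E9.5 differences were 0.52 and 0.19. *Sfrp2* and *Axin2* had values of 1.14 and 0.58 with stage in WT cells, and the difference between the genotypes was called for none of the 4. The test of that difference over all 8917 genes called 1 gene (0.0112%), *Cwc22*, and 292 genes (3.27%) had an unadjusted p under 0.05. The 20 tested genes of the G2 and M phases of the cell cycle all lay below 0 in WT cells, with a median of -0.38 and none called, and the 20 of S phase had a median of 0.01. Of 31 tested clustered histone genes, a list chosen after the values were seen, 12 were called lower with stage in WT cells (median -1.02) and 1 in null cells (median -0.15). Over all genes tested, 0.807% were called lower in WT cells and 0.493% in null cells.

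Some genes were called with stage in null cells alone, and for these the difference between the genotypes was not called either. *Hoxa10*, a posterior Hox gene, had no UMI at E8.5 in either genotype. At E9.5 it was at 2.74, 17.1 and 8.5 CPM in null libraries, at least 11.3-fold higher counting a floor of 3 UMIs over the group, and at 2.18, 0 and 2.71 CPM in WT. *Crabp2*, which carries retinoic acid, was at 8.09 and 6.01 CPM and then at 32.9, 47.4 and 20.8 CPM in null cells (log2 1.98, SE 0.38, adjusted p = 0.00245), against 13.7 and 6.44 CPM and then 20.3, 16.3 and 23.1 CPM in WT (log2 0.74, adjusted p = 0.220). *Serpinf1* was at 0.971 and 2.0 CPM and then at 11, 26.3 and 5.66 CPM in null cells (log2 3.42, SE 0.77, adjusted p = 0.00972). These genes were higher in embryonic types than in YS mesothelium, at 142 CPM in Somitic mesoderm for *Hoxa10*, 1088 CPM in Dorsal spinal cord progenitors for *Crabp2* and 122 CPM in Cranial mesoderm for *Serpinf1*. The highest of the 3 null libraries was C for each of them. Null C, with 16 cells, also had the most *Epcam*, an epithelial gene that YS mesothelium nearly lacks, at 30.3 CPM against 0 to 8.21 CPM in the other tested libraries. Its summed levels of the 8 markers of embryo proper mesothelium and septum transversum and of the 8 markers of amnion and surface ectoderm, 268 and 53.9 CPM, were the highest of the 10 tested libraries, which reached 193 and 21.9 CPM elsewhere. The part of RNA from other cells in these values was not tested. *Nrk*, an X-linked kinase gene, rose in both genotypes, from 8.53 and 3.86 CPM to 51.5, 44.4 and 39.6 CPM in WT (log2 2.53, SE 0.33, adjusted p = 1.92e-05) and from 6.15 and 2.0 CPM to 65.7, 101 and 58.5 CPM in null cells (log2 3.65, SE 0.34, adjusted p = 2.18e-07). *Col14a1*, a collagen outside the matrix list, also rose in both, by 2.23 and 3.28. Of the imprinted list, *Snrpn* fell in WT cells, from 124 and 178 CPM to 66, 41.8 and 65.1 CPM (log2 -1.41, SE 0.29, adjusted p = 0.0222), and *Cdkn1c* rose in null cells, from 226 and 154 CPM to 612, 902 and 573 CPM (log2 1.71, SE 0.19, adjusted p = 0.000153).

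**Figure D4:**
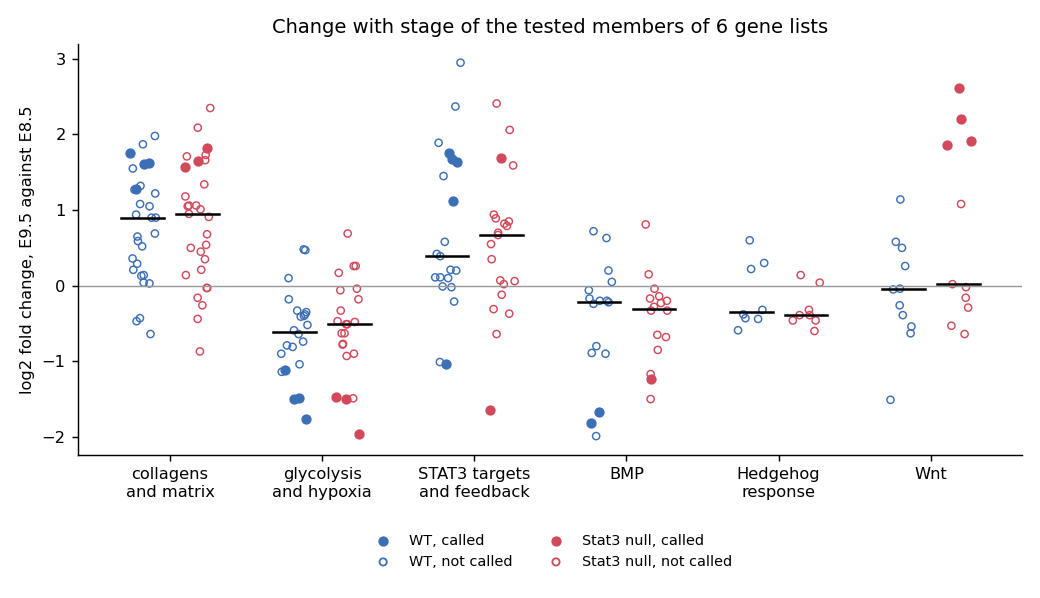
Log2 fold change from E8.5 to E9.5 (y axis) of the tested members of 6 gene lists (x axis) in WT (blue) and *Stat3* null (red) YS mesothelium. Filled points were called, open points were not, and black lines are medians, 0.90 and 0.95 for the matrix list and -0.61 and -0.51 for the glycolysis and hypoxia list.

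At E8.5, null and WT YS mesothelium differed in 3 of 8338 genes tested (0.0360%), 1 higher (0.0120%) and 2 lower (0.0240%) in null cells. At any fold 5 genes (0.0600%) passed the adjusted p, and 286 (3.43%) had an unadjusted p under 0.05. *Slc38a4*, an imprinted amino acid transporter gene (chromosome 15, 96994820 to 97055956, minus strand), was at 54.5 and 64.4 CPM in WT and at 125 and 110 CPM in null libraries (log2 1.05, SE 0.18, adjusted p = 0.0251). *Akr1b8*, an aldo-keto reductase gene, was at 28.9 and 41.2 CPM in WT and at 8.09 and 12 CPM in null libraries (log2 -1.92, SE 0.34, adjusted p = 0.0251). *Eif3j1*, which encodes a subunit of a translation initiation factor, was at 245 and 274 CPM in WT and at 129 and 110 CPM in null libraries (log2 -1.07, SE 0.14, adjusted p = 0.00161). At E9.5 *Eif3j1* was at 109 and 51.0 CPM in WT A and B but 289 CPM in WT D, around null values of 160, 100 and 150 CPM, so its genotypes overlapped there, and as it has a near-identical copy its counts are uncertain. Leaving out an E8.5 library leaves 1 in its group, and those fits also held the E9.5 libraries. Over all alternatives the log2 fold change ran from 0.91 to 1.12 for *Slc38a4*, -2.20 to -1.45 for *Akr1b8* and -1.21 to -0.91 for *Eif3j1*. Their calls were kept in 7, 7 and 6 of 12 alternatives.

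At E9.5, 11 of 8332 genes were called (0.132%), 7 higher (0.0840%) and 4 lower (0.0480%) in null cells. With each library left out in turn the count ran from 5 to 12. At any fold 15 genes (0.180%) passed the adjusted p, and 633 (7.60%) had an unadjusted p under 0.05. *Grb10*, an imprinted gene, expressed mainly from the copy of 1 parent in a given tissue, encodes an adaptor that restrains growth signalling (chromosome 11, 11930508 to 12038683, minus strand). It was at 64.5, 79.7 and 62.6 CPM in WT and at 2.74, 0 and 0.944 CPM in null libraries. With 442 UMIs against 3, the ratio was 56.9 (exact 95% interval 19.4 to 277, counting error only; adjusted p = 1.63e-09). At E8.5 it was at 82.4 and 81.1 CPM in WT, at 4.21 CPM in null A and at 58.1 CPM in null B, low in 1 null library and near the WT level in the other (adjusted p = 1.00). It was called (log2 -4.57) when cells lacking tdTomato, and with them null B, were left out, which leaves null A alone, assumed to vary like the other libraries, and not called without null A (-0.48). In the libraries left out for too few cells it was at 83.6 CPM in WT C and 5.19 CPM in null B. In WT cells *Grb10* was lower in YS mesothelium than in all but 1 of the 40 types. In Embryo proper mesothelium of the same E9.5 libraries it was at 405 to 479 CPM in WT and at 4.51 to 52.1 CPM in null cells.

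*Zdbf2*, a paternally expressed gene (chromosome 1, 63273265 to 63314576, plus strand), was at 201, 191 and 171 CPM in E9.5 WT and at 509, 364 and 341 CPM in null libraries (log2 1.10, SE 0.14, adjusted p = 0.000560), after 92.9 and 73.4 CPM against 173 and 118 CPM at E8.5. *Nap1l5*, another imprinted gene (chromosome 6, 58905233 to 58907076, minus strand), was at 5.08, 2.61 and 2.44 CPM in WT and at 17.8, 14.5 and 13.2 CPM in null libraries (log2 2.24, SE 0.42, adjusted p = 0.0139). *Slc38a4* passed the adjusted p again, at 84.1, 90.2 and 69.4 CPM against 149, 133 and 161 CPM, with a fold change under the limit (log2 0.88, SE 0.14, adjusted p = 0.00250). *Grb10* was the only one of the 23 tested members of the imprinted list to be called, and *Zdbf2*, *Nap1l5* and *Slc38a4* are not on that list. Of its other members *H19*, a maternally expressed RNA, varied most. *H19* was at 3334, 3513 and 3313 CPM in E9.5 WT libraries, and at 4.11, 271 and 819 CPM in null libraries. At E8.5 it was at 2559 and 2264 CPM in WT, 1436 CPM in null A and 12 CPM in null B. Null and WT did not overlap at either stage (nor did 32.4% of all genes tested at E8.5, 16.3% lower and 16.1% higher in null cells, and 12.8% at E9.5, 6.18% lower and 6.65% higher), yet the null libraries differed so widely among themselves that *H19* was not called (log2 -3.20, SE 1.22, adjusted p = 0.681 at E9.5). The low library at E8.5 was null B for *H19* and null A for *Grb10*. *Igf2*, the growth factor gene next to *H19*, was at 1705, 1637 and 1194 CPM in E9.5 WT and at 2717, 2194 and 1930 CPM in null libraries (log2 0.58, SE 0.17, adjusted p = 0.451). *Cdkn1c*, which slows the cell cycle, was at 448, 394 and 383 CPM against 612, 902 and 573 CPM (log2 0.75, SE 0.14, adjusted p = 0.0512).

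**Figure D5:**
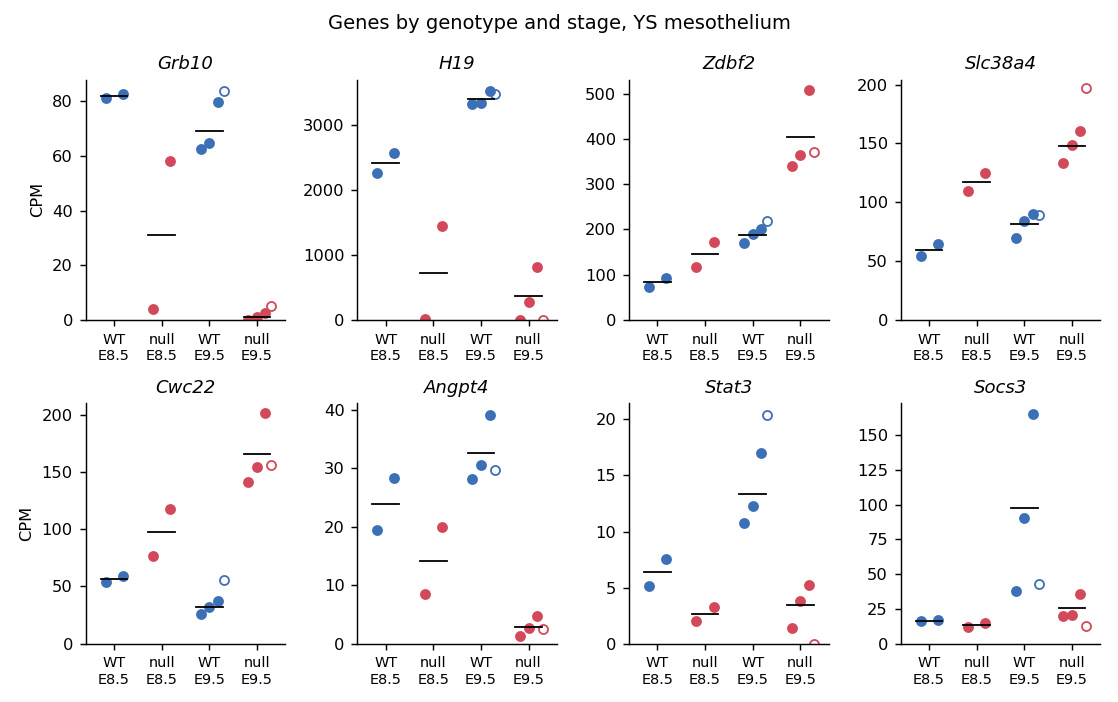
Level (CPM, y axis from 0) of 8 genes in the YS mesothelium of each library by genotype and stage, drawn as in the plot of markers and stage genes. *Grb10* lies at 62.6 to 79.7 CPM in the 3 tested E9.5 WT libraries and at 0 to 2.74 CPM in the 3 null ones, and *H19* is spread from 4.11 to 819 CPM over those null libraries.

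Of the genes without known imprinting, *Cwc22*, a splicing factor gene (chromosome 2, 77881159 to 77946375, minus strand), had the smallest adjusted p among those higher in null cells. It was at 26.1, 37.2 and 32.3 CPM in E9.5 WT and at 141, 201 and 154 CPM in null libraries (log2 2.35, SE 0.16, adjusted p = 1.63e-09), against 58.7 and 54.1 CPM and 76.4 and 118 CPM at E8.5. The effect at E9.5 exceeded that at E8.5 by 1.70 (SE 0.28, adjusted p = 0.0171), the 1 gene for which the stages differed, a call kept in 9 of 15 alternatives. *Cwc22* has near-identical copies and its counts are uncertain. *Angpt4*, an angiopoietin (chromosome 2, 151911210 to 151945337, plus strand), was at 30.5, 39.2 and 28.2 CPM in WT and at 2.74, 1.32 and 4.72 CPM in null libraries (log2 -3.34, SE 0.38, adjusted p = 2.28e-05). At E8.5 it was at 19.4 and 28.3 CPM against 8.42 and 20 CPM. In WT cells it was higher in YS mesothelium than in any other type, the next being Mesenchyme at 6.23 CPM. *C2cd4a*, also highest in YS mesothelium, was at 45.7, 33.3 and 26.3 CPM in WT and at 11, 14.5 and 12.3 CPM in null libraries (log2 -1.43, SE 0.29, adjusted p = 0.0260), a call kept in 6 of 15 alternatives. *Plac1*, an X-linked gene of placental tissues, was at 12.3, 17.0 and 11.4 CPM in WT and at 50.7, 63.1 and 30.2 CPM in null libraries (log2 1.81, SE 0.27, adjusted p = 0.00111). *Rnd2*, *Fggy* and *Eda2r* were higher by 1.41, 2.72 and 2.99, calls kept in 10 of 14, 10 of 13 and 5 of 10 alternatives. The unnamed gene *AC132623.2*, with 73 UMIs in WT and 1 in null cells (ratio 28.2, exact 95% interval 4.91 to 1129), was at 91.4 CPM in WT Megakaryocyte progenitors against 10.5 CPM in YS mesothelium, and *Hba-x* was itself seen in fewer cells of the null libraries, as above; the part of blood RNA in the result was not tested. None of the other gene lists had a member called between null and WT cells at either stage. *Pdgfra*, a growth factor receptor gene of mesenchyme, came close, at 19.6, 13.1 and 18.2 CPM in E9.5 WT and at 26, 43.4 and 41.5 CPM in null libraries (log2 1.11, SE 0.24, adjusted p = 0.0508). The matrix list had medians of -0.08 and -0.04 and the glycolysis and hypoxia list medians of -0.22 and -0.08 at E8.5 and E9.5.

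*Stat3* itself (chromosome 11, 100885098 to 100939540, minus strand) was at 12.3, 17.0 and 10.8 CPM in E9.5 WT and at 1.37, 5.26 and 3.78 CPM in null libraries (log2 -1.86, SE 0.46, adjusted p = 0.119, called in 2 of 14 alternatives). At E8.5, where it was too low to be tested, it was at 7.58 and 5.15 CPM in WT and at 3.24 and 2.0 CPM in null libraries. The null allele lacks internal coding exons while 3' tags fall downstream of them, so some tags in null cells do not speak against their label, and the tag level does not check the deletion. *Socs3* (chromosome 11, 117966079 to 117970047, minus strand) was at 16.6 and 16.7 CPM in E8.5 WT and at 14.9 and 12 CPM in E8.5 null libraries. At E9.5 it was at 165, 90.2 and 38.0 CPM in WT and at 35.6, 19.7 and 20.8 CPM in null libraries. Every tested null library was below every WT library, as was so for 6.18% of all genes tested at E9.5. WT D stood within 3 CPM of null A, and *Socs3* was not called (log2 -1.89, SE 0.85, adjusted p = 0.737), except when WT D was left out (log2 -2.36). In WT cells its mean of 97.6 CPM was the highest of 40 types, with Mesenchyme next at 15.9 CPM, and it had a UMI in 29.2% to 68.0% of thinned WT cells and 18.5% to 29.6% of thinned null cells, against 2.33% to 7.89% of Erythroid cells. In E9.5 WT libraries it was seen in 7.76% to 18.3% of thinned Mesenchyme cells and 5.71% to 17.8% of thinned Embryo proper mesothelium cells. *Fos* and *Junb*, which respond to handling and are also on the list of STAT3 targets used here, varied among these libraries too. *Fos* was at 1103, 606 and 268 CPM in the same E9.5 WT libraries and at 706, 267 and 162 CPM in the null ones, and *Junb* at 71.8, 71.2 and 14.1 CPM and at 37.0, 2.63 and 4.72 CPM. Like *Socs3*, *Fos* was highest of the 40 types in E9.5 WT YS mesothelium, at 659 CPM against 253 CPM in Epidermis. Its mean in E8.5 WT YS mesothelium was 81.6 CPM. *Junb* had rank 5 among the types at E9.5. The part of handling in the *Socs3* values was not tested.

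None of the other listed STAT3 targets was called between the genotypes, and some changed with stage. The list was drawn from general knowledge, and many of its members have other regulators. *Timp1*, an inhibitor of matrix proteases, rose from 22.3 and 15.5 CPM to 89.2, 70.6 and 62.4 CPM in WT (log2 1.76, SE 0.26, adjusted p = 0.000134) and from 26.2 and 14 CPM to 97.2, 57.9 and 87.8 CPM in null cells (log2 1.69, SE 0.26, adjusted p = 0.000347). *Socs1* rose from 5.69 and 6.44 CPM to 23.9, 18.9 and 17.9 CPM in WT cells (log2 1.64, SE 0.35, adjusted p = 0.00559), and was at 14.6 and 14 CPM and then 16.4, 27.6 and 28.3 CPM in null cells. *Cebpb* and *Ifitm3* rose in WT cells by 1.67 and 1.12. In all, 4 of 21 tested members rose and 1, *Vegfa*, fell with stage in WT cells, and 1 rose and 1 fell in null cells. Among all genes tested, 1.54% were called higher and 0.807% lower with stage in WT cells, and 1.48% and 0.493% in null cells. Between null and WT cells none of the 18 tested at E8.5 or the 17 at E9.5 was called, with medians of -0.08 and -0.22 against 0.01 and 0.00 for all genes.

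The null effect in YS mesothelium at E9.5 was set against that in Embryo proper mesothelium of the same libraries. Of 9415 genes tested, 1 (0.0106%) differed between the types, and 506 (5.37%) had an unadjusted p under 0.05. *Alcam*, a cell adhesion gene, was at 124, 127 and 95.2 CPM in WT and at 114, 82.9 and 86.9 CPM in null YS mesothelium. In Embryo proper mesothelium it was at 3.32 to 11 CPM in WT and at 16.6 to 25.3 CPM in null cells, and the difference of the effects was -1.79 (SE 0.31, adjusted p = 0.0217), a call kept in 5 of 10 alternatives. The genotypes overlapped in YS mesothelium and did not overlap in Embryo proper mesothelium. For *Cwc22*, *Zdbf2* and *Slc38a4* the difference of the effects was 0.02 (SE 0.19), -0.05 (SE 0.17) and -0.00 (SE 0.17), with adjusted p = 1.00 each. For *Plac1* it was 2.03 (SE 0.57, adjusted p = 0.536) and for *Socs3* -1.84 (SE 0.42, unadjusted p = 0.000173, adjusted p = 0.337), called in 2 of 10 alternatives. *Socs3* in Embryo proper mesothelium was at 6.61 to 18.6 CPM in WT and at 8.27 to 18.7 CPM in null libraries, ranges that overlapped.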

How the data were processed

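Per the labels and the study's methods, the authors sorted chimera cells by tdTomato, made 10x 3' libraries, counted UMIs with Cell Ranger on mm10 with an added tdTomato sequence, kept cells with over 10000 UMIs, called doublets and named cells from their 25 nearest atlas neighbours. A deposited score gives the fraction of those neighbours that share the name, and a deposited percent the mitochondrial share of a cell's UMIs. The deposited values are raw UMI counts per gene and cell, and total UMIs per library of analysed cells ran from 20682659 to 138613245. Counts were summed per library over YS mesothelium cells and tested with edgeR 4.0.16 (filterByExpr, TMM, robust quasi-likelihood, Benjamini-Hochberg over all genes tested), in R 4.3.3, after leaving out predicted, mitochondrial, ribosomal protein, haemoglobin, Xist, Tsix, Y-linked and tdTomato genes. Genes were called at an adjusted p under 0.05 and a log2 fold change over 1 in size. Depth limits the low genes, since the smallest tested library held 499152 UMIs. Null B at E9.5 and WT C fell under the minimum of 15 cells. Pairs of libraries of 1 group differed beyond counting noise (chi-square per degree of freedom 1.86 to 4.39), so none was a duplicate. Named genes were the 12 called genes with the largest change in each direction whose libraries did not overlap, called members of the gene lists (up to 4 a list), the markers and Stat3, and genes of special interest such as Socs3, H19 and Fos were added after their values were seen. Members and lists were chosen with earlier results of these data known. Coordinates are from GENCODE M21 (GRCm38) and promoters from RefSeq. The scripts were tested on simulated data. Alternatives were DESeq2 1.42.0, limma-voom 3.58.1, no low-count filter, no fold limit, thinned cells, other cell minimums and each library left out in turn.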

Additional observations from a re-analysis of the deposited data

Results flagged for a closer look

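In the 4 E9.5 null libraries the gene AC132623.2 was at 0 CPM in A, B and C and at 0.944 CPM in D, which set D apart from the others because its gap to them was the whole range. That value is 1 UMI. Such a lone library was looked for in 44 groups of 4 and found in this 1, where chance gives about 1 in 20.

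The null effect on Cwc22 was larger at E9.5 than at E8.5 by 1.70 on the log2 scale, by the test of that difference across the stages. The null effect on Alcam at E9.5 was lower in YS mesothelium than in Embryo proper mesothelium by a difference of -1.79, by the test of that difference between the cell types.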

How the results depend on the processing

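The counts of called genes moved more than the direction of named genes. For null against WT at E8.5 (3 genes) DESeq2 called 1, no low-count filter 11, no fold limit 5 and thinned cells 0 (244 at an unadjusted p under 0.05 in edgeR), and leaving out null cells without tdTomato, which drops null B and leaves 1 null library assumed to vary like the others, gave 24. Leaving out an E8.5 library left 1 in its group, so these fits also held the E9.5 libraries and their counts are not set against the main one. At E9.5 (11 genes) no filter gave 49 and thinned cells 4, and leave-one-out gave 5 (without WT B) to 12, with 7 without null A. With stage in WT cells (209) no filter gave 322, no fold limit 475, and leave-one-out 74 to 248. In null cells (176) the values were 292, 402, 108 in thinned cells, and 86 to 220 (libraries named above). For the difference between the stages (1) leave-one-out gave 0 to 2: 0 without E8.5 WT A or B or E9.5 WT A or null D, and 2 without E8.5 null A. For the difference between the mesothelia (1) limma-voom and dropping the library block each gave 0, no filter 11, a minimum of 10 cells 2, and leave-one-out 0 (without WT B or null D) to 4 (null A), with 2 without WT A and 3 without null C.

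The abundance change at E8.5 turned to -0.26 without WT B and -0.41 without null A (range -0.41 to 1.05), in fits that, unlike the main one, held all stages. At E9.5 it ranged from -1.60 to -0.83, the stage difference from -2.16 to -0.62, and the difference in share from -1.50 to -0.535 percentage points, with no call changed. The mapped-stage difference ranged from -0.142 (without E8.5 null A) to -0.0240 days.

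Of named genes, 12 of the alternative values turned direction. Hand1 for null against WT became -0.00 at E8.5 without cells lacking tdTomato and ranged from -0.01 to 0.55 with each library left out, and at E9.5 became -0.03 in thinned cells and ranged from -0.03 to 0.13. Its differences of effects ranged from -0.52 to 0.04 between the stages and from -0.34 to 0.06 between the mesothelia. Upk3b ranged from -1.45 to 2.48 at E8.5, its stage difference from -3.35 to 0.59 and its difference between the mesothelia from -0.90 to 0.04. The extremes past 0 came without E8.5 null B, WT A or WT D for Hand1 and without E8.5 null A or E9.5 WT D for Upk3b. Eif3j1 at E9.5 became 0.00 with limma-voom and ranged from -0.59 to 0.78 (without WT D), and Stat3 with stage in null cells from -0.20 (without null C) to 0.67. None of these was called. The cause was not tested. Of results not called, Stat3 at E9.5 was called without the low-count filter and with a minimum of 10 cells (smallest adjusted p 0.0141), Socs3 at E9.5 without WT D (-2.36), Socs3 with stage in WT cells in 3 of 17 alternatives (DESeq2, a minimum of 50 cells and without WT D), Grb10 at E8.5 without null B, and Angpt4 and Zdbf2 at E8.5 without cells lacking tdTomato. At E9.5, over the alternatives run, Cwc22, Angpt4 and Plac1 stayed called in each, Grb10 in 14 of 15 (not with all stages in 1 fit), Zdbf2 in 14 of 15, AC132623.2 in 10 of 11, Fggy in 10 of 13, Rnd2 in 10 of 14, Nap1l5 in 9 of 13, C2cd4a in 6 of 15 and Eda2r in 5 of 10. The difference of the effects stayed called in 9 of 15 for Cwc22 and 5 of 10 for Alcam, and that of Socs3 between the mesothelia was called without the filter and without WT D. With stage in WT cells Vegfa and Col6a2 stayed called in 8 of 17 and Lrrn4 in 7 of 16, while Col1a1, Col1a2 and Upk3b were called in 2 of 17 (DESeq2 and a minimum of 50 cells) and Col3a1 (DESeq2) and Upk1b in 1 each. A minimum of 50 cells left too few null libraries to fit any comparison with null cells. For stage in WT cells it left 1 E8.5 library, WT A, assumed to vary like the others. The minimum of 10 cells, the size-factor scalings, the share of both mesothelia and the alternatives for stage in null cells were chosen after seeing the data. No paired analysis was possible because the library names of the cells carry no embryo or pool number, although the labels give 1 WT and 1 null library for each pool.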
